A study of Mus musculus with 6 samples.

Results

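T and natural killer (NK) lymphocytes of the mouse knee synovium were described from 225 cells, out of 18491 deposited cell barcodes of which 18077 had at most 10% mitochondrial UMIs. They made up 1.24% of those 18077 cells. A cell was taken as a member when it held at least 3 UMIs of Cd3e, Cd3d, Cd3g, Nkg7 and Trbc2 together, at most 1 of the B-cell genes Cd79a and Cd79b, at most 5 of the myeloid genes Lyz2, C1qa and C1qb, and at most 5 of the fibroblast genes Dcn and Col1a2. A UMI, or unique molecular identifier, stands for 1 captured transcript. The marker minimum was met by 267 cells, of which 29 exceeded the myeloid limit, 14 the fibroblast limit and 1 the B-cell limit, a cell over more than 1 limit being counted under each. The members were thus chosen by the measured UMIs of those genes, whose levels are a description. Cd3d, Cd3e, Cd3g and Trbc2 are also in the receptor-complex list and Nkg7 in the cytotoxic list used below, so values of those lists are in part fixed by the choice.

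The study set mice lacking Notch3, or treated with an antibody against it, beside untargeted mice, in healthy joints and in joints inflamed by serum of autoimmune K/BxN mice. Each of the 6 groups was 1 droplet library (10x Genomics, 3' kit) made from the pooled knee synovium of 10 mice. Healthy joints came from Wild Type mice and from Notch3-/- knockouts, and so did 2 of the arthritic pools. The remaining pools were arthritic joints after an isotype control antibody (the isotype library) or after anti-Notch3. All live cells were sorted with no gate for lymphocytes. No group had a second library, so differences between 2 libraries carry counting error only and could not be tested against the spread between pools. The genotype labels of the antibody libraries name only the antibody, and a knockout in every tissue cannot be told apart here from one acting within lymphocytes. In this serum-transfer model the antibodies that start the disease are supplied from outside, so the recipients' own lymphocytes are not what starts it.

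T cells carry an antigen receptor built of alpha and beta, or gamma and delta, chains, which signals through the CD3 proteins encoded by Cd3d, Cd3e, Cd3g and Cd247. NK cells lack CD3 and kill through granules that hold granzymes, perforin and Nkg7. Regulatory T cells, marked by the transcription factor Foxp3 and the inhibitory receptor Ctla4, restrain other lymphocytes, and gamma-delta T cells of joints are known as a source of interleukin 17.

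The members were shallower than the cells around them. Their median UMI count per cell was 3009, 2021, 1826, 2088, 1844.5 and 2216 (wild type and then knockout in healthy joints, the same in arthritic joints, then isotype and anti-Notch3), against 7620, 4582, 4098, 4330, 6436 and 5166 in all other cells. This order of libraries is kept below wherever 6 values are given. Summed over members, the libraries held 127012, 62840, 136443, 99338, 97113 and 70683 UMIs, and a level is given as CPM, counts per 1000000 member UMIs. The doublet caller Scrublet marked 179 cells (0.99%, and between 0.0987% and 2.06% by library), and 0 of the members; no cell was removed for it. The members of arthritic wild type and isotype had 1 cell barcode in common, and no other pair of libraries had any. The 22 cells with exactly 3 marker UMIs, just inside the rule, had a median of 1712 UMIs, and 90.9% of them held a UMI of Trac, Trbc1, Cd2 or Lck. Of the 17 cells with 2 marker UMIs, just outside it, 82.4% did (median 2104 UMIs).

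The members' leading genes, other than those of the rule, are T and NK genes, given here as a description since they were picked for their ratio. The 20 genes with the largest ratio of members to other cells (at least 100 member UMIs) included Gzma (granzyme A; 890 CPM in members against 0.788 in other cells), Trac (the T-cell receptor alpha constant region; 539 and 0.788), Il2rb (a chain of the receptors for interleukins 2 and 15; 349 and 0.622) and Lck (the kinase that starts receptor signalling; 278 and 1.08). Ctla4 (251 and 0.554 CPM), the costimulatory receptor Tnfrsf4 (495 CPM in members), the linker Lat (362 and 1.18) and Trdc, the delta receptor chain (362 and 1.72), belonged to the same 20. Cd74, the invariant chain of MHC class II, which marks antigen-presenting cells, was not at background in every library. It stood at 0, 63.7, 5445, 20.1, 4778 and 523 CPM. Of the macrophage markers that the rule did not limit, Adgre1 and Mrc1 were at 0 in every library, C1qc had 3 UMIs in all and Csf1r 7. Neutrophil markers summed to 0 to 22.0 CPM, and the 5 mural markers were at 0 in every library. Mast cell and basophil markers summed to 0 to 63.7 CPM in 5 libraries and to 1369 CPM in arthritic knockout. There, 1 cell alone held all 99 UMIs of Mcpt8, a basophil protease.

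Clustering of the members placed most Cd74 UMIs (1198 of 1250) in 1 group of cells. Among 7 clusters of members, cluster 6 (14 cells, median 6615.5 UMIs) was led by Cd74, H2-Ab1, H2-Aa, H2-Eb1 and Il1b, genes of antigen-presenting and inflammatory myeloid cells, and it was given no name. It held 0, 0, 5, 4, 4 and 1 members. Its cells carried 22.4% of the member UMIs of arthritic wild type, 42.0% of arthritic knockout, 17.8% of isotype and 1.56% of anti-Notch3. Without it, Cd74 was at 0, 63.7, 208, 17.4, 163 and 172 CPM. Values without these 14 cells are given for the shares, the gene lists and the edgeR counts. The comparison with other cells was not refitted without them.

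T and NK members were a smaller share of cells in each Notch3-targeted library than in its counterpart, but 3 pairs cannot separate this from chance by an exact test. They were 37 of 2917 cells in healthy wild type (1.27%, exact Clopper-Pearson interval 0.895 to 1.74) and 29 of 5000 in healthy knockout (0.58%, 0.389 to 0.832). Arthritic wild type had 57 of 2396 (2.38%, 1.81 to 3.07) and arthritic knockout 31 of 2656 (1.17%, 0.794 to 1.65). The isotype library had 46 of 3040 (1.51%, 1.11 to 2.01) and the anti-Notch3 library 25 of 2068 (1.21%, 0.784 to 1.78). The intervals, at 95% and for counting error only, do not overlap in the healthy and arthritic genotype pairs and overlap in the antibody pair. The log2 ratios of targeted to untargeted share were -1.13, -1.03 and -0.32, a mean of -0.83 ± 0.44 (SD, n = 3 pairs), lower in 3 of 3 pairs (exact sign-flip permutation test, two-sided, p = 0.25, the smallest this design allows). Without cluster 6 the mean was -0.82 and p again 0.25. With every cell thinned to 1500 UMIs the antibody pair was level, at 1.04% and 1.06%, the mean was -0.80, and p was 0.5. The shares of the 4 arthritic libraries were higher than those of the 2 healthy libraries by 0.81 on the log2 scale, and by 0.68 without cluster 6. An exact permutation test that did not match libraries by genotype gave p = 0.4 (two-sided, smallest possible 0.133). Its spread thus includes the difference with Notch3 targeting, and it cannot decide the question. Within a genotype, the arthritic share was 1.88 times the healthy share in wild type and 2.01 times in knockout, without a test. A share also moves with the number of other cells recovered, so fewer lymphocytes and more of other cells cannot be told apart.

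**Figure D1:**
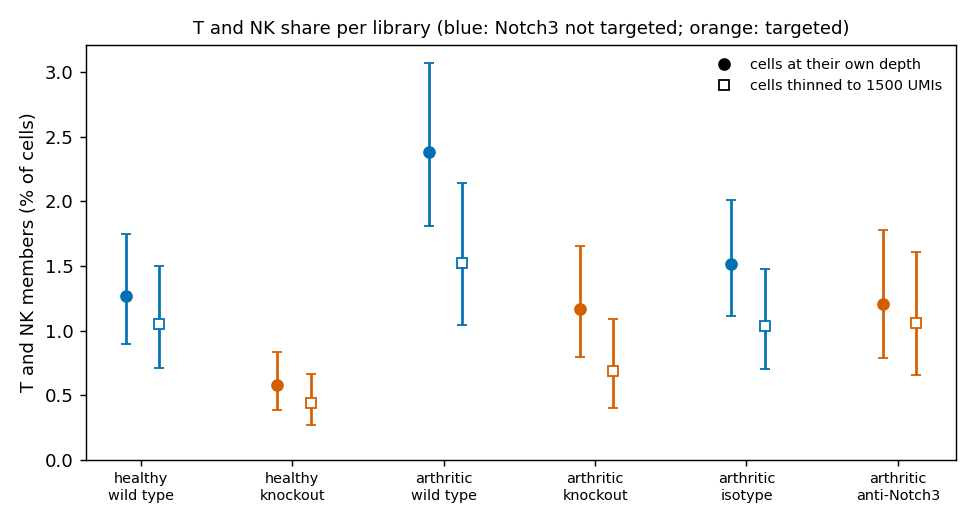
Members as a percentage of cells (vertical axis) in each of the 6 libraries (horizontal axis), with exact 95% Clopper-Pearson intervals that cover counting error only; filled circles are cells at their own depth, open squares cells thinned to 1500 UMIs. Each orange (Notch3-targeted) circle lies below the blue circle to its left, and the antibody pair is level after thinning (1.03% and 1.06%).

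Subsets were assigned by marker UMIs, and the commonest class was CD3-positive with no further marker. Of the 225, 110 had CD3 UMIs with no further marker, 36 were NK-marked (at least 2 UMIs of NK receptor genes or Eomes and none of CD3), 23 CD4-marked, 22 CD8-marked, 19 gamma-delta-marked, 8 marked as type 2 innate lymphoid cells (ILC2) and 7 unassigned, 6 of these in arthritic knockout. In genes the subset rule did not use, Gzma was at 4856 CPM in NK-marked and 280 CPM in CD8-marked members, and at 0 in gamma-delta-marked members. Ccl5, a chemokine of cytotoxic cells, was at 14014 CPM in NK-marked, 12690 in CD8-marked and 592 in CD4-marked members. The interleukin 17 gene Il17a had 15 UMIs in gamma-delta-marked and 21 in other CD3 members and 0 in the remaining subsets. The interleukin 7 receptor Il7r was at 1105 CPM in gamma-delta-marked and 20.1 in NK-marked members. Foxp3 was found in CD4-marked (139 CPM) and other CD3 members (116 CPM) and in no other subset. These sums are descriptions with no test.

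NK-marked members numbered 10 of 37, 4 of 29, 4 of 57, 6 of 31, 4 of 46 and 8 of 25 across the libraries. That is 27.0% (interval 13.8 to 44.1), 13.8% (3.89 to 31.7), 7.02% (1.95 to 17.0), 19.4% (7.45 to 37.5), 8.70% (2.42 to 20.8) and 32% (14.9 to 53.5). Both arthritic libraries without targeting had the lowest shares, and intervals overlapped within every pair. Gamma-delta-marked members numbered 2, 1, 6, 0, 8 and 2. The interval of the 0 of 31 in arthritic knockout (0 to 11.2%) overlapped that of arthritic wild type (10.5%, 3.96 to 21.5). Cluster 1, described below and only in part gamma-delta-marked, held 8, 6, 12, 2, 16 and 3 members. Thinned to 1500 UMIs, the NK-marked counts were 10 of 33, 3 of 23, 1 of 39, 3 of 24, 4 of 33 and 7 of 21.

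**Figure D2:**
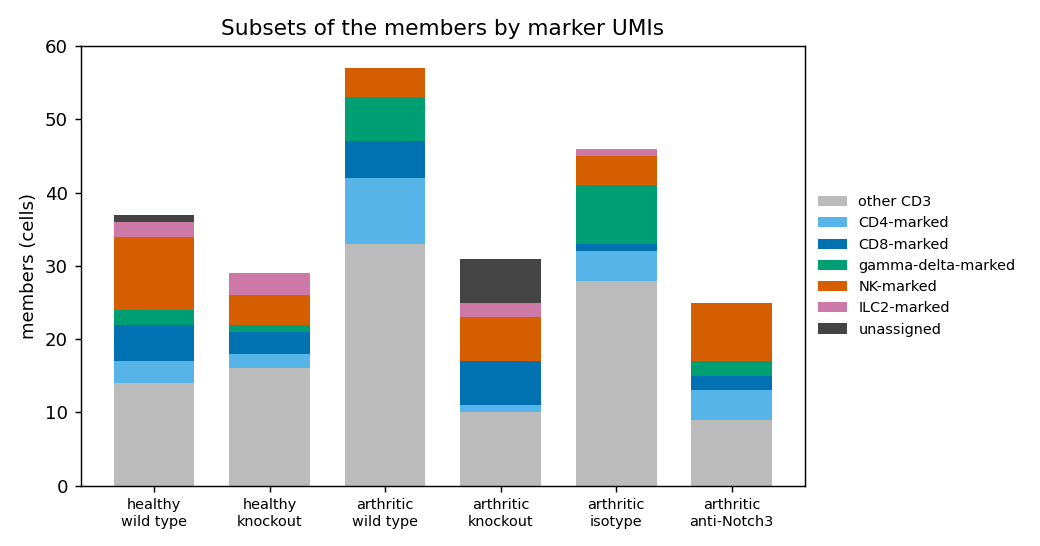
Number of members (vertical axis) in each library (horizontal axis), stacked by the subset that marker UMIs assigned. NK-marked members (orange-red) number 4 in arthritic wild type and 4 in isotype but 8 of 25 in anti-Notch3, and the unassigned members (dark) lie mostly in arthritic knockout (6 of 7).

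Clustering grouped the members without marker thresholds and is a description only. Cluster 0 (49 cells) was led by Cd8b1, Ccr7, Lef1 and Tcf7, and is called naive T-like by these leading genes only. Ccr7 and Lef1 were each found in 14 of its cells and Tcf7 in 16, and 19 of its cells were CD8-marked. The name thus does not describe every cell. Cluster 1 (47 cells) was led by Trdc, Cd163l1, Tcrg-C1, Il17a and Blk (gamma-delta T-like). Cluster 2 (46 cells) was led by Gzma, Xcl1, Ncr1, Klra4 and Klre1 (NK-like) and held all 36 NK-marked members. Cluster 3 (27 cells) was led by the costimulatory receptors Tnfrsf4 and Tnfrsf9 with Klrg1, Lag3 and Foxp3, and cluster 4 (27 cells) by Ctla4, Ikzf2, Ifi27l2a and Ly6a. Cluster 5 (15 cells) was led by Ccl1, Il2, Calca, Gata3 and Areg. Of the 47 cells of cluster 1, 25 held a Trdc UMI. By marker, 19 of them were gamma-delta-marked and 25 were other CD3, so the cluster's share is not a gamma-delta share.

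Gzma is shown by the sequence before its start because it leads the members by fold and is among the genes that differ most between libraries below. The promoter (the 250 bases upstream of the annotated start) lies at chr13:113100982-113101231 on the minus strand (RefSeq, GRCm38.p6), and the gene, which is protein coding, at chromosome 13, 113093825 to 113100981 (GENCODE, mm10). Capitals mark the match to TGTGGT, the core letters bound by RUNX factors, searched on both strands and here found on the reverse strand.
Gzma: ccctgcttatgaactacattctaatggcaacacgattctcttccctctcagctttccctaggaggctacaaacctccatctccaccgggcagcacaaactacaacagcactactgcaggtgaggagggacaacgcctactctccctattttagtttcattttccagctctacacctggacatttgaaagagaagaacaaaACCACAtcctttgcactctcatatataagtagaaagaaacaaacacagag
The motif was present in the promoters of 5 of 9 cytotoxic genes with a sequence (Gzma, Gzmb, Gzmm, Prf1 and Nkg7), in 5 of 13 NK genes and in 14.0% of all 32851 promoter windows of that length. A match is a description of letters and not of binding.

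A shared effect of Notch3 targeting on the members' genes was sought over all 3 pairs with edgeR's quasi-likelihood test, which was fitted to summed counts with 1 term for the pair. Hspa1a, which encodes an inducible HSP70 heat-shock chaperone, was the only gene that changed: 1 of 1629 genes tested (0.0614%; 110 at an unadjusted p under 0.05, and 0 called by DESeq2). It was at 23.6, 15.9, 374, 20.1, 13356 and 424 CPM. One library thus stands far above the rest, the isotype library, where 45 of 46 members held a UMI of it (97.8%, interval 88.5 to 99.9), against 10 of 25 under anti-Notch3 and 1 to 10 members in the other libraries. The fit put the gene lower with targeting by -4.70 in log2 units (SE 0.539, adjusted p = 0.0432 by edgeR), lower in 3 of 3 pairs. Of these, the healthy pair had the gene in only 2 of 37 wild-type and 1 of 29 knockout members. It is too near the floor to show a decrease. Other cells of the isotype library were also highest, at 2721 CPM against 264 to 1645 CPM elsewhere, and the related Hspa1b was at 1122 CPM in isotype members and 0 to 113 CPM in the others. When the antibody pair was left out, Hspa1a had too few UMIs to enter the test, and 3 other genes passed in edgeR: Ctla4 (-3.21, adjusted p = 0.0384), Ddit4 (-4.95, adjusted p = 0.0105) and Wls (-3.63, adjusted p = 0.0156). The part of that library's other cells in the result was not tested. Without cluster 6 Hspa1a was the 1 gene called again (-4.88).

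The promoter of Hspa1a is shown because it is the single gene called. The 250 bases upstream lie at chr17:34972157-34972406 on the minus strand (RefSeq, GRCm38.p6), and the gene at chromosome 17, 34969190 to 34972156. Capitals mark the match to GAANNTTC, a pair of facing heat-shock element units, searched on both strands.
Hspa1a: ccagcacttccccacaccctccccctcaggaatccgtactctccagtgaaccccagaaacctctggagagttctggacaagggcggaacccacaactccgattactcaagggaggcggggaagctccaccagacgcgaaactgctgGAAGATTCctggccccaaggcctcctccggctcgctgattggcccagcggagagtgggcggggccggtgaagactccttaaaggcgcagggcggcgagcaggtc
Of 11 dissociation stress genes with a promoter sequence, 3 held that motif (Jun, Hspa1a and Hspa1b), against 6.69% of all promoter windows.

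Among lymphocyte gene lists, no member passed this test, and the lists leaned in different directions. All 7 regulatory T genes tested had negative estimates, with a median of -1.70 beside -0.03 over all genes: Ctla4 at -2.17 (SE 0.642), Foxp3 at -2.48 (SE 0.983), the interleukin 2 receptor chain Il2ra at -1.99 (SE 0.798) and Ikzf2, which encodes the Helios transcription factor, at -1.16 (SE 0.362). Their smallest adjusted p was 0.604 by edgeR. The cytotoxic list had 6 of 7 positive estimates (median 0.83) and the NK list 8 of 10 (median 0.61), with the smallest adjusted p for both at 0.621. Estimates were negative for 4 of 4 gamma-delta genes (median -1.44) and 6 of 6 interferon response genes (median -0.82). Not every pair went that way. In the healthy pair, 2 of 3 interferon genes with at least 20 UMIs were at least 2-fold higher and 0 lower (median 1.02). The 2 regulatory T genes read there had a median of 0.26. In the antibody pair, 1 of 5 interferon genes was higher and 1 lower (median -0.80). Since fewer cells of a subset and less RNA per cell enter the sum alike, these cannot be told apart.

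The 2 arthritic pairs were then read one by one against the fold of all genes. In arthritic knockout against arthritic wild type, the 5 regulatory T genes (of 7) and 6 interferon genes (of 16) with at least 20 UMIs were at least 2-fold lower. Here and in every pair below, the minimum was set on both libraries together. A gene can meet it through the library where it is high, so counts of list members are in part fixed by the filter. Of 1585 genes with at least 20 UMIs, 87 were at least 2-fold higher (5.49%) and 227 lower (14.3%), with a median of -0.08. The median of the 5 regulatory T genes was -3.60. Ctla4 was at 118, 47.7, 667, 30.2, 268 and 156 CPM (intervals in the arthritic pairs of 537 to 819, 6.23 to 88.3, 175 to 392 and 77.7 to 278). Arthritic wild type was highest, and its interval overlapped that of no other library. Tnfrsf9, a costimulatory receptor, was at 15.7, 79.6, 1048, 60.4, 484 and 255 CPM, and Ikzf2 at 157, 111, 901, 242, 422 and 255 CPM. In both genes, too, the intervals of the arthritic genotype pair lie apart and those of the antibody pair overlap. Tnfrsf4 was at 39.4, 63.7, 1466, 90.6, 371 and 566 CPM, but 1 cell held 30 of the 40 UMIs behind the anti-Notch3 value.

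These UMIs were spread over many members. A UMI of Foxp3 or Ctla4 was found in 7 of 37, 2 of 29, 31 of 57, 2 of 31, 18 of 46 and 3 of 25 members, a set of markers chosen after the values were seen. The arthritic wild-type share was 54.4% (interval 40.7 to 67.6) and the arthritic knockout share 6.45% (0.791 to 21.4). Under isotype it was 39.1% (25.1 to 54.6) and under anti-Notch3 12% (2.55 to 31.2). Thinned to 1500 UMIs the arthritic libraries had 17 of 39, 1 of 24, 13 of 33 and 2 of 21. In fibroblast-marked cells, which should lack both genes, the share was at most 0.123% at median depths of 4604.5 to 8406 UMIs, so that these shares lie above background. Both libraries with arthritis and no targeting were highest, and the healthy libraries had 18.9% and 6.90%, which thinning lowered to 3.03% (1 of 33) and 0 of 23.

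**Figure D3:**
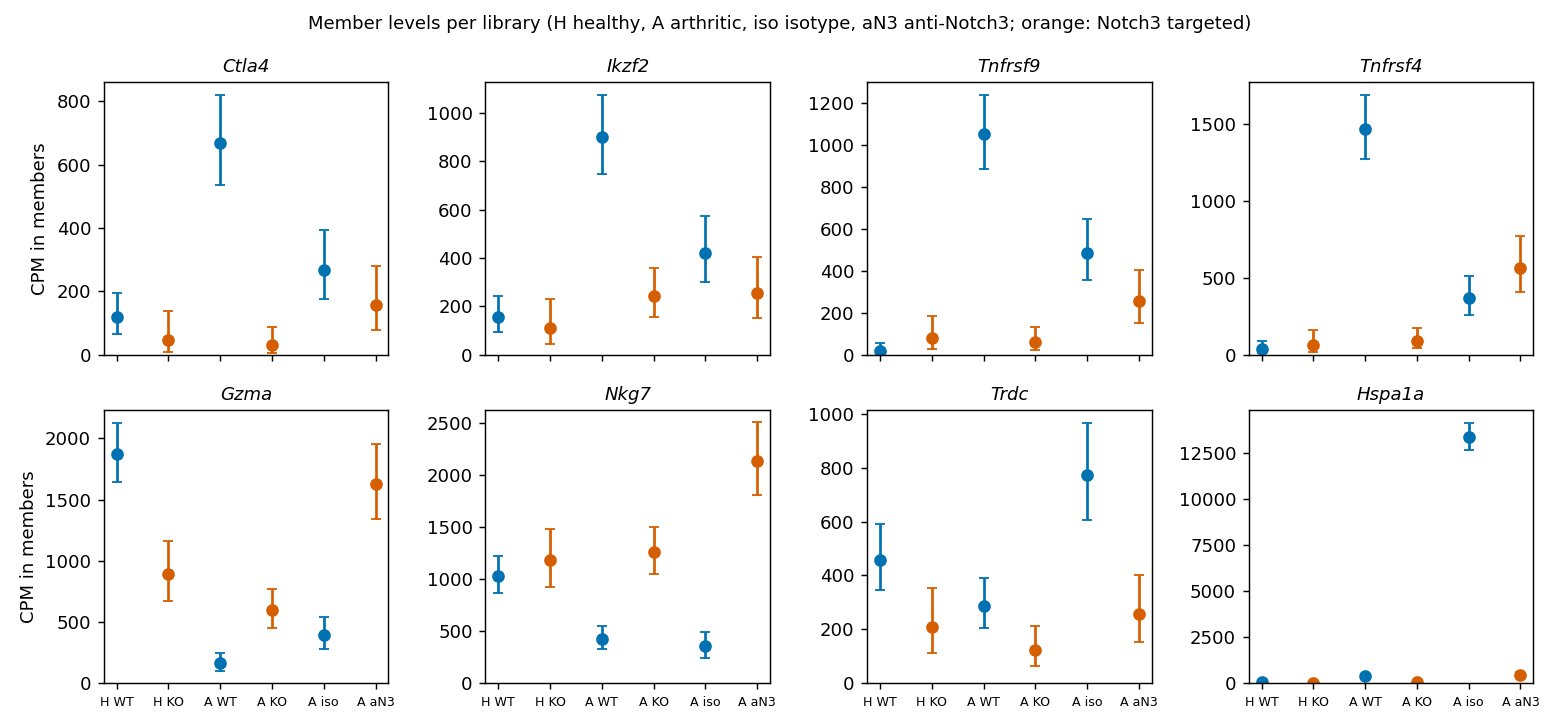
Levels of 8 genes in the members of each library (CPM on the vertical axis, libraries on the horizontal axis, exact 95% Poisson intervals for counting error only; orange marks Notch3-targeted libraries). Ctla4, Ikzf2, Tnfrsf9 and Tnfrsf4 are highest in arthritic wild type, Gzma and Nkg7 are low in both arthritic libraries without targeting, and Hspa1a stands out in the isotype library alone.

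In the same arthritic genotype pair, all 6 interferon response genes were at least 2-fold lower in the knockout (median -2.87), among them Ifi27l2a, an interferon-induced mitochondrial protein gene (110, 191, 3547, 242, 844 and 453 CPM), and the ubiquitin-like Isg15 (63.0, 31.8, 235, 20.1, 82.4 and 170 CPM). Ifi27l2a was also higher in other cells of arthritic wild type, at 1131 CPM against 282 to 545 CPM in the other libraries. Of the 17 receptor-complex genes 9 were lower and 0 higher (median -1.04), but without cluster 6 only Cd5 of 16 was (median -0.54), whereas the 5 regulatory T genes stayed lower (median -3.07), as did 4 of 5 interferon genes (median -3.03). Of the 9, Cd3d, Cd3e and Cd3g are rule genes. Of 6 cytotoxic genes 2 were at least 2-fold higher (Gzma and Nkg7) and Gzmb was lower (550 and 70.5 CPM), with a median of 0.47. Of 5 NK genes 2 were higher (Ncr1 and Klrd1) and 0 lower, with a median of 0.32. Nkg7, itself a rule gene, was at 425 and 1258 CPM, Gzma at 161 and 594 CPM, the NK receptor Ncr1 at 58.6 and 191 CPM, and the lymphocyte-attracting chemokine Xcl1 at 66.0 and 453 CPM, of which 24 of 45 UMIs came from 1 cell. Without cluster 6, 4 of 5 NK genes (Ncr1, Klrd1, Tyrobp and Fcer1g) were at least 2-fold higher in the knockout. Over all 1100 genes read without that cluster, 39 (3.55%) were at least 2-fold higher and 142 (12.9%) lower, with a median of -0.14. By the naming rule the genes with the largest ratios were Mcpt8, Prss34, Pf4, Mpo and Ctsg (higher) and Cd74, H2-Aa, Il1b, Il1r2 and H2-Eb1 (lower). The UMIs of Mcpt8 and of Prss34, proteases of basophils, came from 1 cell each, and 97.8% of those of Pf4, a platelet chemokine, and 79.5% of those of Mpo from a single cell. Il1r2, a decoy receptor for interleukin 1, had UMIs in 17 arthritic wild-type members and 0 in the knockout.

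Under anti-Notch3 against isotype, NK and cytotoxic genes were higher in the members, and the 3 gamma-delta genes read were lower. Of 1159 genes, 90 (7.77%) were at least 2-fold higher and 113 (9.75%) lower, with a median of 0.06. In the NK list 7 of 8 were higher (median 1.55) and in the cytotoxic list 6 of 7 (median 1.97), Nkg7 of the rule among them. Gzma was at 391 CPM under isotype (interval 277 to 537) and 1627 under anti-Notch3 (1343 to 1953), in 2 of 46 and 8 of 25 members, and 33 of the 38 isotype UMIs came from 1 cell. Nkg7 was at 350 and 2136 CPM, the NK receptor chain Klrd1 (CD94) at 175 and 693 CPM, and the granzyme inhibitor Serpinb9 at 30.9 and 552 CPM, in 3 and 12 members. The 3 gamma-delta genes (of 14) with at least 20 UMIs were at least 2-fold lower (median -1.29). Trdc was at 772 CPM (607 to 968) and 255 CPM (151 to 402), in 14 and 4 members. Of 4 regulatory T genes, 0 were at least 2-fold higher and 0 lower (median -0.73). The naming rule gave Pclaf, Klra1, Serpinb9, Stmn1 and Irf8 as higher and Il1b, Tff1, Dnaja4, H2-DMb1 and Hspa1a as lower. Pclaf and Stmn1 are genes of dividing cells, with 21 and 26 anti-Notch3 UMIs in 2 and 5 members, and Dnaja4, a cochaperone, was found in 15 isotype members and 0 under anti-Notch3. Without cluster 6 the NK and cytotoxic medians were 1.43 and 1.73. The 2 arthritic pairs share no library.

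In the healthy pair, 3 of 8 tissue residence and activation genes were at least 2-fold higher in the knockout. The library tags of the barcodes lie far apart in this pair. With 1 library per group, a batch cannot be told apart from the genotype or antibody in this or any other pair. Of 1259 genes, 92 (7.31%) were at least 2-fold higher and 98 (7.78%) lower, with a median of 0.03. The 3 were Rgs1, Ctla2a and Crem, and the list's median was 0.74. Il2, the T-cell growth factor, had 2 UMIs in wild type and 25 in the knockout, in 8 members, of which 1 cell gave 12. Ccl1, a chemokine made by activated T cells, had 34 UMIs in 5 knockout members and 0 in wild type. Both genes lead cluster 5, which held 3 of 37 wild-type members (8.11%, interval 1.70 to 21.9) and 8 of 29 in the knockout (27.6%, 12.7 to 47.2), so that more cells of that cluster and more RNA per cell cannot be told apart. Cxcl2, Dusp10 and the calcium channel gene Orai1 completed the 5 higher genes of the naming rule. Lower were Hes1, a target of Notch signalling, Grap2, Wls, Sertad1 and Dusp2. Hes1 had 21 UMIs in wild type, 13 of them in 1 cell, and 0 in the knockout, which allows up to 47.7 CPM (a limit of 3 UMIs in the library). Gzma was at 1874 CPM (1643 to 2128) in wild type and 891 (673 to 1157) in the knockout, the opposite order to the arthritic pairs.

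**Figure D4:**
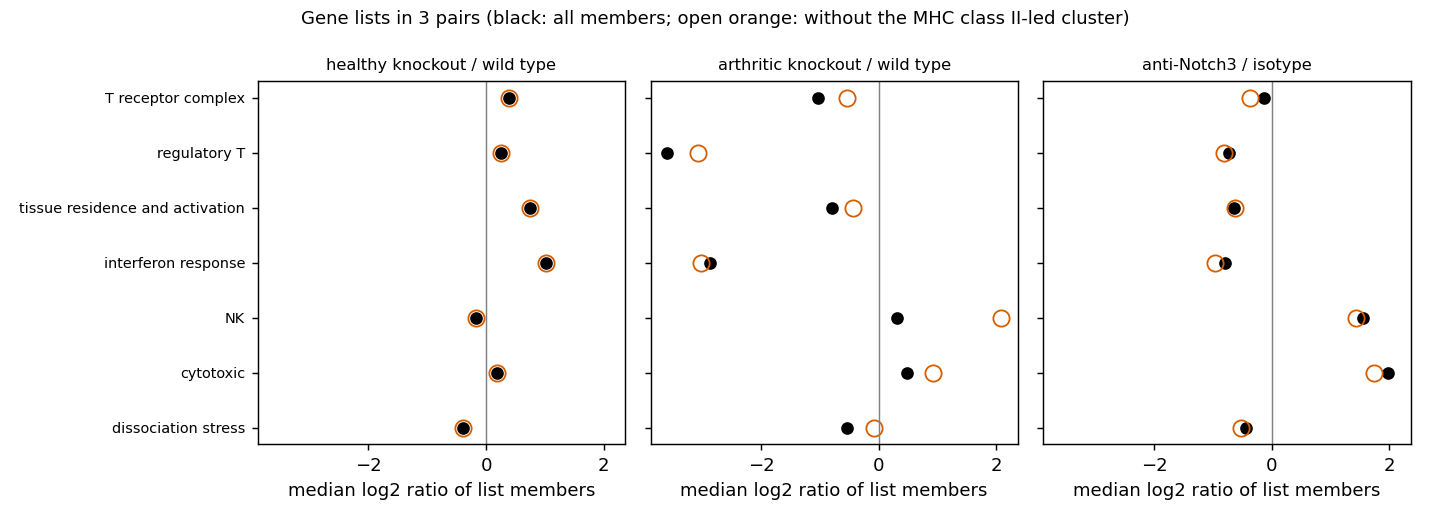
Median log2 ratio of targeted to untargeted library (horizontal axis) over the genes of 7 lists with at least 20 UMIs in the pair. Panels are the healthy genotype, arthritic genotype and antibody pairs, with all members (black) and without cluster 6 (open orange circles). Regulatory T medians are 0.26 over 2 genes in the healthy pair and -3.60 and -0.73 in the arthritic pairs. The NK and cytotoxic (which holds the rule's Nkg7) medians lie above 0 in both arthritic pairs, and leaving out cluster 6 moves the arthritic genotype pair most.

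Arthritis was compared with health within each genotype. In wild type, regulatory T genes were higher and NK genes lower in arthritis. Of 1784 genes, 224 (12.6%) were at least 2-fold higher and 137 (7.68%) lower. The 6 regulatory T genes (of 7) with at least 20 UMIs were all higher (Foxp3, Ctla4, Il2ra, Ikzf2, Tnfrsf18 and Tnfrsf9). Their median was 2.41, and 2.64 without cluster 6. Of 6 interferon genes 5 were higher (median 2.76), and of 8 NK genes 5 were lower (median -1.36). Foxp3 had 5 UMIs in 3 healthy and 18 UMIs in 12 arthritic members. In this comparison, too, a gene could meet the UMI minimum through the library where it was high. Gzma, Klra4, Klrb1c and the actin cross-linker gene Flna, with Hes1, were the lowest by the naming rule, and the 5 highest (Cd74, H2-Ab1, H2-Eb1, H2-Aa and Il1b) lead cluster 6. In knockout libraries 70 of 1055 genes (6.64%) were higher and 111 (10.5%) lower, with a median of -0.03. Scaling by the median of ratios moved that median to 0.21 and made the split 112 higher and 77 lower. There 1 regulatory T gene of 2 was higher (Ikzf2) and 1 lower (Tnfrsf18), and 0 of 3 interferon genes were higher. Mcpt8, Prss34, Plac8, Ifitm1 and Mpo were highest and Cxcl2, Il2, Ccl1, Fgl2 and the chemokine receptor gene Cxcr6 lowest. These comparisons share their libraries with the Notch3 pairs above and add no independent evidence to them. Over both genotypes edgeR called 0 of 1629 genes (0.0%; 100 at an unadjusted p under 0.05, 1 by DESeq2, Plac8). Without the antibody pair it called 7, all higher in arthritis: Ctss, Ifitm1, Ifitm2, Ifitm3, Marcksl1, Plac8 and Tnfrsf4. The genes of smallest p were Marcksl1 (7.78, SE 1.04, adjusted p = 0.20), Il1b (8.28, adjusted p = 0.20), Ifitm1 (8.36, adjusted p = 0.296), Ifitm3 (6.23, adjusted p = 0.335) and Odc1, the rate-limiting enzyme of polyamine synthesis (1.96, SE 0.39, adjusted p = 0.355). Odc1 was at 134, 79.6, 579, 262, 597 and 354 CPM, and every arthritic library lay above both healthy ones. Marcksl1, Il1b and Ifitm1 were at 0 in both healthy libraries and Ifitm3 at 0 and 1 UMI, so their fitted values are no measure of a fold. Il1b was at 0 in arthritic knockout as well, and DESeq2 put it at 2.32. Without cluster 6, which Il1b, Ifitm1 and Ifitm3 lead, Odc1 was the only one of the 5 with enough UMIs to be tested (1.92, adjusted p = 0.109 by edgeR).

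The Notch3 effect differed between members and all other cells for 12 of 1629 genes (0.737%), by an interaction test in edgeR over 12 sums. At an unadjusted p under 0.05 there were 142. For called genes, higher and lower refer to the effect in members minus that in other cells, and not to levels. Of the 12 genes, 2 were higher and 10 lower. No gene of the receptor-complex, regulatory T, NK, cytotoxic or gamma-delta lists was among them. Of the 13 dissociation stress genes, 3 were called lower, Hspa1a among them. All 13 estimates were negative, with a median of -1.27 beside -0.04 over all genes. In the shared Notch3 fit above, 12 of these 13 were negative (median -0.45). The cause was not tested. For Hspa1a, the Notch3 effect in members minus that in other cells was -4.20 (SE 0.484, adjusted p = 0.0127 by edgeR). Il1b, Wfdc17, H2-DMb1, H2-Eb1, H2-Aa and Cd74 are genes of cluster 6, which was not left out in this fit. Ly6c2 (2.59, adjusted p = 0.0303) and Acp5 (2.56, adjusted p = 0.0429) were the 2 higher genes. Acp5, the tartrate-resistant phosphatase of osteoclasts, was at 63.0, 127, 58.6, 151, 41.2 and 84.9 CPM in members. In other cells it was at 107, 50.3, 148, 44.9, 201 and 65.8 CPM. By CPM, targeted libraries were thus higher in members and lower in other cells in 3 of 3 pairs. The member values rest on few UMIs in every library. In the healthy pair the member UMI counts were equal, and the CPM differ by the member totals alone. Phlda1 was lower (-2.30, adjusted p = 0.0429 by edgeR).

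The members themselves showed no Notch3. It had 0 UMIs in members of every library, which, at the same limit of 3 UMIs a library, allows up to 23.6, 47.7, 22.0, 30.2, 30.9 and 42.4 CPM, while other cells were at 4.99, 0.289, 5.61, 0.255, 3.31 and 2.18 CPM. At these depths a level like that of the other cells was not detectable. Notch1, the receptor known for its part in T-cell development, was at 15.7, 15.9, 14.7, 10.1, 30.9 and 0 CPM, on 9 UMIs in all. No gene of the 14 in the Notch pathway list had enough UMIs to enter the edgeR test.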

How the data were processed

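Knee synovium cells of 6 libraries were profiled by 10x Genomics 3' sequencing. The deposited values are raw UMI counts per gene and barcode, made by the authors with Cell Ranger 3.0.2 on mm10 per the submitters' processing notes. Their filters are not given in the sources used here. Every deposited barcode had at least 501 genes.

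Members followed the rule in the text, and the members, gene lists and naming rule were chosen with earlier results of these data known. Named were Notch3, list members, genes past the edgeR threshold (or the 5 of smallest p), up to 5 genes higher and lower per pair, and the 20 leading genes. Counts were summed per library and tested with edgeR 4.0.16 (TMM, filterByExpr, terms for pair and Notch3 targeting, Benjamini-Hochberg threshold 0.05; R 4.3.3), tested on simulated data. DESeq2 1.42.0 was the alternative. The spread behind p is the disagreement between pairs. An SE is the log2 change divided by the root of F. Single pairs used log2 ratios with a pseudocount of 0.5 UMIs and a 2-fold limit, over genes with at least 20 UMIs in both libraries together. Clusters came from scanpy 1.11.5 (1000 variable genes, 15 components, 12 neighbours, Leiden resolution 1). Poisson and Clopper-Pearson intervals are at 95%, and counting is the only error they cover.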

Additional observations from a re-analysis of the deposited data

Results flagged for a closer look

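Of the gene lists with at least 4 measured genes in each pair, 4 had a median log2 ratio of targeted to untargeted library that pointed one way in the healthy pair and the other way in both arthritic pairs. None of these differences was tested. The receptor-complex median was 0.39 in the healthy pair, -1.04 in the arthritic genotype pair and -0.13 in the antibody pair, over a list that holds the rule's Cd3d, Cd3e, Cd3g and Trbc2, and without cluster 6 it was -0.54 in the arthritic genotype pair and -0.37 in the antibody pair. The NK median was -0.16, 0.32 and 1.55 in the same order. The tissue residence and activation median was 0.74, -0.80 and -0.64. The effector cytokine median was 0.35, -0.21 and -0.11.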

How the results depend on the processing

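The mean Notch3 log2 ratio of member shares stayed negative under every alternative. Its exact sign-flip p cannot fall below 0.25 with 3 pairs, so that p shows no stability. Thinned to 1500 UMIs, 2 of 3 pairs were lower and the antibody pair was at 0.03. The count of genes called for the shared Notch3 effect was 1; it was 44 with no filter on low counts, 0 by DESeq2 (Hspa1a at an adjusted p of 0.128), 2 with at least 5 marker UMIs per cell, and 1 to 4 when a pair was left out. The arthritis count of 0 became 36 with no filter, 1 by DESeq2, 5 with at least 5 marker UMIs and 7 without the antibody pair. The count for members minus other cells was 12, and 42 with no filter. With no filter 11787 genes were tested in each fit, against 1629 in the main fits. The cause of these changes was not tested. With a minimum of 50 UMIs, fewer genes were read. At least 2-fold apart were 34 of 473, 102 of 624 and 51 of 430 in the healthy, arthritic genotype and antibody pairs. In arthritis they were 112 of 689 in wild type and 38 of 391 in knockout. Without cluster 6, an alternative chosen after seeing the data, 181 of 1100 (arthritic genotype) and 82 of 772 (arthritis in knockout) were. With it, the counts were 314 of 1585 and 181 of 1055. Cluster 1, which is only in part gamma-delta-marked, held 21.6%, 20.7% and 34.8% of members in healthy wild type, healthy knockout and isotype. Gamma-delta-marked shares there were 5.41%, 3.45% and 17.4%, and 6.06% in isotype after thinning. In arthritic wild type, arthritic knockout and anti-Notch3, cluster 1 held 21.1%, 6.45% and 12%. The gamma-delta-marked shares there were 10.5%, 0 and 8%. The healthy split of 92 higher and 98 lower became 92 and 55 with a pseudocount of 2 UMIs and 69 and 115 with the median of ratios; the arthritis split in wild type became 265 and 111. The labels carry no replicate numbers to block on; libraries were paired by condition. With 25 to 57 members a library, a gene below about 20 UMIs could not be read.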
